A study of Mus musculus with 7 samples.

Results

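The genes described here encode the eukaryotic translation initiation factors (Eif) and elongation factors (Eef), together with a few enzymes that carry the same name stem. They were taken by symbol: every symbol beginning with Eif or Eef followed by a digit was included, apart from Eif2s3y and names ending in -ps, which gave 63 of 32531 symbols. Of these, 61 passed the low-count filter and were tested among 17375 genes. Eif4e1b, an oocyte-type relative of the cap-binding protein, had 0 counts in all 7 libraries, which allows at most 0.0585 to 0.0819 CPM (gene counts scaled to a common library total) in a library. Eif4ebp3 had at most 0.628 CPM and was not tested.

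Brain tissue bordering the ventricles was taken from adult Dcdc2a-TRAP mice, line ES2575. In TRAP (translating ribosome affinity purification) a transgene, here EGFP fused to the ribosomal protein Rpl10a in a Dcdc2a line, marks ribosomes of chosen cells, and antibodies to EGFP on magnetic beads pull down the marked polysomes. The tested material is ribosome-bound RNA from 3 such immunopurifications (IP 1, IP 3 and IP 4), and the comparison material is total RNA from 4 samples of the same line (Input 1 to Input 4). All 7 libraries carry the transgene. The series is aimed at the ependymal cells, the ciliated cells that line the ventricles, and the labels do not say whether animals were pooled, which sex they were, or which other cells express the tag.

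Initiation begins when eIF2 delivers the initiator tRNA to the small ribosomal subunit, helped by eIF1, eIF1A, eIF3 and eIF5. The eIF4F complex, made of the cap-binding eIF4E, the scaffold eIF4G and the helicase eIF4A, brings the mRNA, and eIF5B joins the large subunit. In elongation eEF1A delivers aminoacyl-tRNAs, the eEF1B subunits recharge it with GTP, eEF2 moves the ribosome along, and eIF5A relieves stalls. Several of these factors are encoded by TOP mRNAs, which start with a C followed by a run of pyrimidines and whose translation is set together with that of the ribosomal proteins. In a comparison of ribosome-bound with total RNA, loading on ribosomes, the amount of mRNA and the kind of cell cannot be told apart.

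Counts assigned to genes ranged from 42422439 to 52175180 in IP and from 37203427 to 44754345 in Input. All 12 ependymal markers checked, Foxj1 among them, were called higher in IP (5 with the replicate number as a block), with summed levels of 255 (IP 1), 3195 (IP 3) and 2672 CPM (IP 4) against 39.3 to 62.9 CPM in Input. Of 10 mural and fibroblast markers 7 were called higher (1 with the block), with sums of 99.9 to 1342 CPM in IP and 37.9 to 89.6 CPM in Input. Of the other marker lists, 2 of 10 astrocyte genes and 1 of 10 endothelial genes were called higher, 2 of 10 oligodendrocyte genes lower, and 0 of 12 neuronal, 0 of 10 microglial and 0 of 10 choroid plexus genes in either direction. With the block 0 genes of these 6 lists were called. Without IP 1, 6 astrocyte, 3 choroid plexus and 1 endothelial genes were called higher, and 6 oligodendrocyte, 4 neuronal and 1 astrocyte genes lower. In that fit 12.5% of all tested genes were called higher and 9.55% lower. IP 1 stood apart from the other IP libraries and was closer to Input than to them. Over all tested genes its log2 CPM correlated at 0.891 to 0.895 with the Inputs, 0.823 with IP 3 and 0.852 with IP 4. IP 3 and IP 4 correlated at 0.935 with each other. Meg3, a nuclear noncoding RNA of neurons, had 13673 CPM in IP 1, 230.2 in IP 3 and 310.2 in IP 4, against 2647 to 3647 CPM in Input. Among all tested genes 15.1% were over 2-fold higher in IP 1 than in both other IP libraries, and 17% over 2-fold lower. Results that rest on IP 1 are therefore given with and without it.

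TOP-type factors were taken from a list of 5 elongation factor genes (Eef1a1, Eef1b2, Eef1d, Eef1g and Eef2) and 6 initiation factor genes (Eif2s3x, Eif3a, Eif3e, Eif3f, Eif3h and Eif4b) whose mRNAs are known as TOP mRNAs, mostly from human cells. RefSeq promoter sequences of build GRCm38.p6 were at hand for 49 of the 63 genes, 7 of them TOP-type. They were searched on the sense strand for a C followed by at least 5 further pyrimidines (C or T), within 20 bases before and 50 bases after each annotated start. Of the 7 TOP-type starts 6 held such a tract, against 21 of 57 starts of the other factors (36.8%) and 44.7% of all 32851 annotated starts in the table. The match is common, the annotated start need not be the one used in these cells, and the letters alone do not show a TOP mRNA. The stretches shown are 30 bases long, 5′ to 3′, with the tract nearest the start in capitals. They show how some of the known TOP-type genes look at the start and how the neuronal paralogue Eef1a2 and the factor that moved most clearly, Eif5a2, compare.
Eef1a1 (chr9:78481705-78481734, minus strand): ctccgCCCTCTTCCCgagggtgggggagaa
Eif3f (chr7:108934406-108934435, plus strand): ctaggCTCTCTCTCTTTCTCggcaagatgg
Eif2s3x (chrX:94212628-94212657, minus strand): attttCCTTTTCTCTCCgagcaagatggct
Eif4b (chr15:102073756-102073785, plus strand): caggtCTTCCCgtcggacgccgcgccaccc
Eef1b2 (chr1:63176816-63176845, plus strand): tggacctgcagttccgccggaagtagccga
Eef1a2 (chr2:181157005-181157034, minus strand): tttttCTCTCCTggtctgcgttctcgctca
Eif5a2 (chr3:28781262-28781291, plus strand): ggcgggcccgggctgggcgggccggggcgg
The tract runs across the annotated start in Eef1a1, Eif3f and Eif2s3x, and is longest in Eif3f among those printed, at 15 bases. It ends before the annotated start in Eif4b and Eef1a2. Eef1b2 and Eif5a2 have no such tract in the window searched.

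Few translation factors were called as different between IP and Input. The log2 folds of those tested ran from -1.09 to 1.82. Of 61 tested, 0 were called higher and 1, Eif5a2, was called lower by edgeR's quasi-likelihood test (Benjamini-Hochberg adjusted p under 0.05 over all genes). Across all tested genes 3.64% were called higher and 2.16% lower, or 5.81% in all. Without the adjustment, 6 factors were higher and 6 lower at a p under 0.05, against 13.3% and 9.4% of all tested genes. DESeq2 called 3 higher and 1 lower, where it called 8.03% and 5.54% of all genes. Limma voom called 0 higher and 1 lower, where it called 0.432% and 1.09%. Without IP 1, 3 factors were called higher and 4 lower, against 12.5% and 9.55% of all genes. With the replicate block 0 were called, against 0.54% and 0.17%. The median log2 fold of the 61 was 0.12, beside 0.06 over all tested genes, and 34 of the 61 were positive (53.1% of all tested genes were). Summed over the 63 genes, the factors took 7225, 7045 and 6403 CPM in IP 1, IP 3 and IP 4, against 7277, 7315, 7028 and 6746 CPM in Inputs 1 to 4, so the groups overlapped. Every IP lay above every Input for 7 of the 61 factors and below it for 6, where 9.55% and 10.4% of all tested genes did so. The factors above every Input were Eef1d, Eef2kmt, Eif2d, Eif3i, Eif4a3, Eif4enif1 and Eif4g1, and those below were Eef1g, Eif3h, Eif4a2, Eif4b, Eif4e2 and Eif5a2. A factor that was not called may still differ. The labels do not say that the libraries came from separate animals, so p-values measure the spread between these libraries, which may be technical. In bulk RNA of this kind, fewer cells of a type and less of an RNA per cell cannot be told apart.

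**Figure D1:**
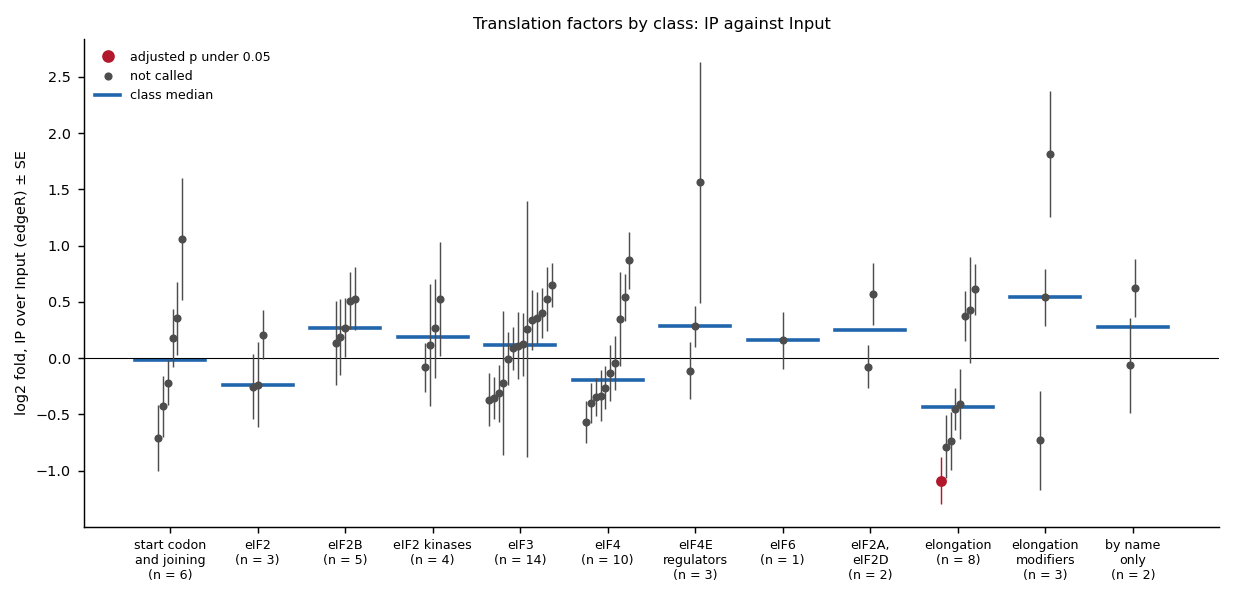
Fitted log2 fold of IP over Input (vertical axis, edgeR, ± SE) for the 61 tested factors, grouped on the horizontal axis by class, with the class median as a blue bar. The eIF2B subunits all lie above 0, most elongation factors lie below it, and the called gene, in red, is Eif5a2 at -1.09.

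The elongation factors held the called gene and had a median log2 fold of -0.43 over 8 genes. The 8 include both eIF5A genes, Eif5a and Eif5a2, with log2 folds of -0.79 and -1.09. Of the Eef genes among them, Eef1a1, Eef1b2 and Eef1g had negative folds and Eef1a2, Eef1d and Eef2 positive ones. The Eef genes alone thus had no shared direction. Eif5a2 (ENSMUSG00000050192.8, GRCm38 chromosome 3, 28781276 to 28798846, plus strand) encodes the second form of eIF5A, which carries the modified amino acid hypusine and is found in fewer tissues than Eif5a. Its level was 62.0, 102 and 89.1 CPM in IP 1, IP 3 and IP 4, against 170, 194, 169 and 186 CPM in Inputs 1 to 4. Every IP was well below every Input. The log2 fold was -1.09 ± 0.21 (SE, adjusted p in edgeR = 0.0228). Within sequencing lanes, which pair each IP with the Input of its number, the log2 ratios were -1.45 (number 1), -0.72 (number 3) and -1.07 (number 4). With the replicate number as a block the fold was -1.08 and the call was lost (edgeR adjusted p = 0.115). It was also lost without IP 4 or any 1 Input (adjusted p from 0.0719 to 0.0818) and kept without IP 1 (log2 fold -0.91, adjusted p = 0.0011) or IP 3 (-1.26, 0.0247).

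Its paralogue Eif5a, the common form, had 84.5, 154 and 165 CPM in IP 1, IP 3 and IP 4, against 250, 281, 241 and 159 CPM in Inputs 1 to 4. IP 4 lay just above Input 4, so the groups overlapped, and the log2 fold of -0.79 ± 0.28 (SE) was not called (edgeR adjusted p = 0.127). The log2 ratio of Eif5a2 to Eif5a reads within a library averaged -0.64 ± 0.23 in IP (n = 3, SD) and -0.34 ± 0.39 in Input (n = 4, SD), a difference of -0.30 (exact two-sided permutation test, p = 0.457, adjusted p = 0.629 over 11 paralogue pairs). With 3 against 4 libraries the smallest p this test can give is 0.0571. The enzymes that make hypusine on eIF5A were not called either: Dhps (deoxyhypusine synthase) had a log2 fold of -0.80 ± 0.37 (SE, adjusted p in edgeR = 0.237) and Dohh (deoxyhypusine hydroxylase) of -0.55 ± 0.33 (SE, adjusted p in edgeR = 0.360).

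The tRNA-delivering factor eEF1A has 2 genes, Eef1a1, used in most cells, and Eef1a2, which takes over in mature neurons and muscle. Eef1a1 had 309, 442 and 332 CPM in IP 1, IP 3 and IP 4, against 515, 428, 537 and 498 CPM in Inputs 1 to 4. IP 3 reached into the Input range, and the log2 fold of -0.45 ± 0.19 (SE) was not called (edgeR adjusted p = 0.187). Eef1a2 had 127, 112 and 159 CPM in the IP libraries in the same order, against 109, 130, 83.6 and 86.6 CPM in Inputs 1 to 4, and its log2 fold was 0.38 ± 0.22 (SE, adjusted p in edgeR = 0.356). The log2 ratio of Eef1a2 to Eef1a1 averaged -1.44 ± 0.48 in IP (n = 3, SD) and -2.29 ± 0.43 in Input (n = 4, SD), a difference of 0.85 in which the groups still overlapped (exact two-sided permutation test, p = 0.0857, adjusted p = 0.377 over the 11 pairs). The summed level of the 12 neuronal markers was 26304, 9813 and 9018 CPM in IP 1, IP 3 and IP 4, against 14643 to 16681 CPM in Input. Without Meg3 the other 11 summed to 12631, 9583 and 8708 CPM in the IP libraries, against 10996 to 14034 CPM in Input, so IP 1 lay inside the Input range and IP 3 and IP 4 below it. The part of neuronal RNA in these ratios was not tested. Of the 50-base stretches of the longest Eef1a1 transcript 60.6% occur in other annotated genes, 21 in number, and reads that align to several places were not counted. Such reads made up 19.8% (IP 1), 29.6% (IP 3) and 39.3% (IP 4) of each file's total, against 20.9% to 21.2% in Input, so the level of Eef1a1 is uncertain; the part of this in its fold was not tested.

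The other eEF1 subunits did not move as a unit. Eef1g, the gamma subunit that anchors the exchange complex, had 32.8, 29.7 and 19.0 CPM in IP 1, IP 3 and IP 4, against 48.9, 47.8, 46.4 and 37.9 CPM in Inputs 1 to 4. Every IP lay below every Input, with a log2 fold of -0.74 ± 0.26 (SE, adjusted p in edgeR = 0.127, and 0.0244 without IP 1). Eef1g shares 64.3% of its 50-base stretches with other genes and is uncertain in the same way. Eef1d, the delta exchange subunit, ran the other way, with 49.0, 44.5 and 48.5 CPM in IP against 25.3, 32.1, 37.9 and 28.6 CPM in Input. Here every IP lay above every Input (log2 fold 0.61 ± 0.23 SE, adjusted p in edgeR = 0.145). Eef1b2, the beta exchange subunit, overlapped between the groups, with 44.8 to 85.5 CPM in IP and 65.5 to 131 CPM in Input.

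The IP libraries disagreed on Eef2, the translocase. It had 1337 CPM in IP 1, 286 in IP 3 and 386 in IP 4, against 594, 572, 426 and 400 CPM in Inputs 1 to 4. IP 1 was above every Input and the other IP libraries were below every Input. The log2 fold over all libraries was 0.43 ± 0.47 (SE, adjusted p in edgeR = 0.660), and without IP 1 it turned to -0.57 ± 0.19 (SE, adjusted p in edgeR = 0.0453). Eef2k, the kinase that inactivates eEF2, had 44.5, 48.6 and 33.1 CPM in IP against 31.5, 24.0, 24.7 and 35.6 CPM in Input (log2 fold 0.54 ± 0.25 SE, adjusted p in edgeR = 0.242). Eef2kmt, a methyltransferase acting on eEF2, had 7.63, 24.9 and 12.04 CPM in IP against 5.64, 3.06, 1.75 and 6.41 CPM in Input. All 3 IP libraries lay above every Input, but the log2 fold of 1.82 ± 0.56 (SE) was not called (edgeR adjusted p = 0.0878, 0.0082 without IP 1, and 0.350 with the replicate block). Of the exon bases of Eef2kmt 23.0% overlap Alg1 and Gm15983 on the other strand, and its count is uncertain because the strand setting is not known.

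**Figure D2:**
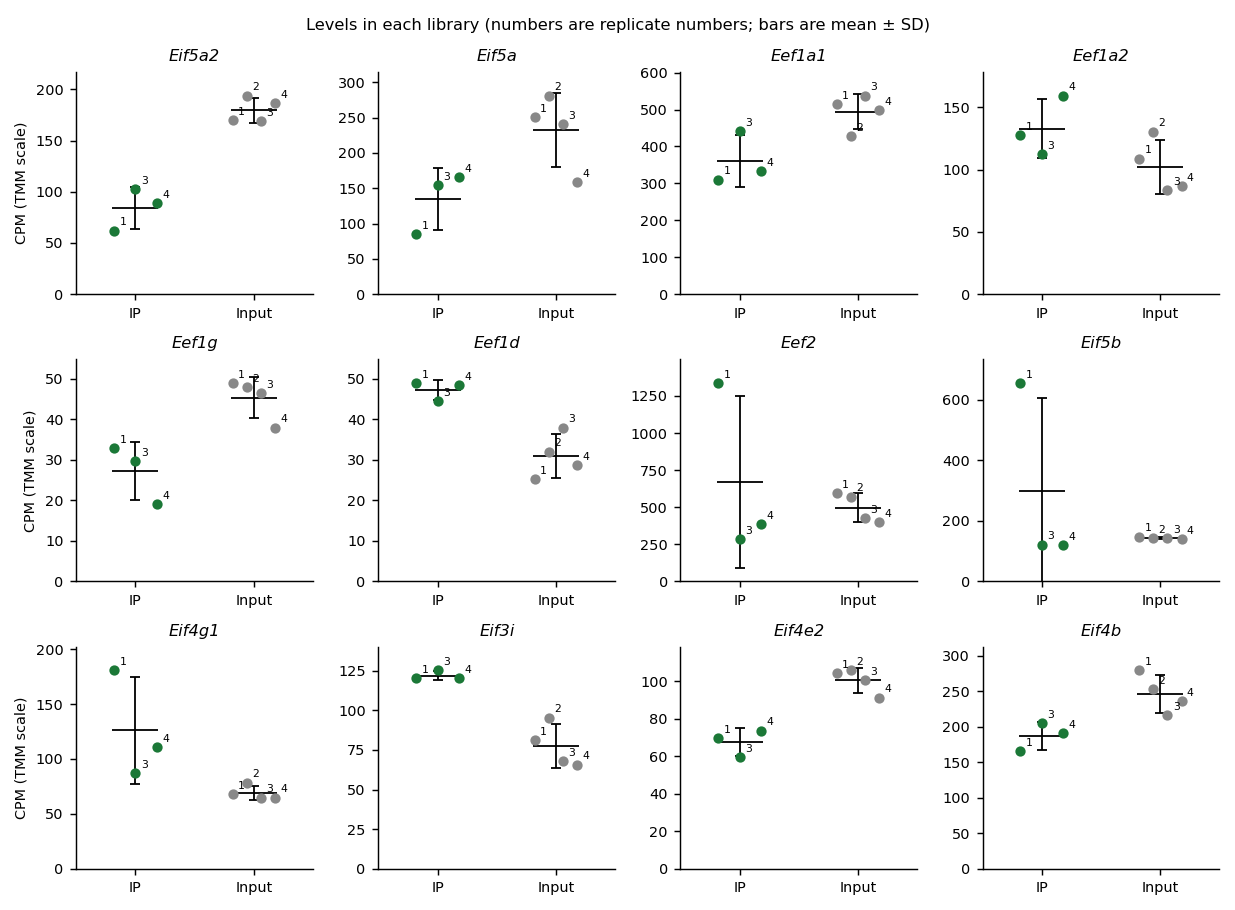
CPM of 12 factors (vertical axes from 0) in the 3 IP libraries (green, left) and the 4 Input libraries (grey, right), each point numbered by replicate, with mean ± SD as bars; the lower bar of Eif5b runs below the axis. Eif5a2, Eef1g, Eif4e2 and Eif4b have every IP point under every Input point, Eef1d, Eif3i and Eif4g1 have every IP point over them, and IP 1 stands far above all other libraries in Eef2 and Eif5b.

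Among the initiation subunits (39 tested genes of eIF1, eIF1A, eIF2, eIF2B, eIF3, eIF4, eIF5, eIF5B and eIF6) 0 were called in either direction by edgeR. Of all tested genes 3.64% were called higher and 2.16% lower. In either direction 5 of the 39 had an unadjusted p under 0.05, where 13.3% of all tested genes were higher and 9.4% lower. The median log2 fold was 0.12. Without IP 1, 2 were called higher (Eif2b1 and Eif3i) and 1 lower (Eif4e2), where 12.5% and 9.55% of all tested genes were called in the same fit. DESeq2 called Eif4g1 and Eif3i higher on all libraries, where it called 8.03% of all genes higher.

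The 6 factors of start codon selection and subunit joining had log2 folds from -0.71 (Eif1) to 1.06 (Eif5b), with a median of -0.02. Eif5b, the GTPase for joining (named after its values were seen), had 656 CPM in IP 1, 122 in IP 3 and 119 in IP 4, against 148, 143, 143 and 140 CPM in Inputs 1 to 4. The 4 Inputs were close together and IP 1 was far above them, while IP 3 and IP 4 were below. The log2 fold was 1.06 ± 0.54 (SE, adjusted p in edgeR = 0.288) and turned to -0.26 ± 0.16 without IP 1 (SE, adjusted p in edgeR = 0.266). Of its exon bases 16.9% overlap Rev1 on the other strand. Eif1, the gatekeeper of start codon choice, had 55.8, 140 and 81.6 CPM in IP against 153, 171, 155 and 124 CPM in Input (log2 fold -0.71 ± 0.29 SE, adjusted p in edgeR = 0.182, and 0.0350 without IP 3). Of the 50-base stretches of Eif1 31.6% occur in other genes. Eif1b, a close relative of Eif1, had a log2 fold of -0.43 ± 0.27 (SE, adjusted p in edgeR = 0.400). Eif1a and Eif1ax, the autosomal and X-linked genes for eIF1A, had 50.4 and 27.5 CPM in IP 1, below their Inputs, and 97.3 to 104 and 63.2 to 67.2 CPM in IP 3 and IP 4, above every Input.

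Among the subunits of eIF2 and of its exchange factor eIF2B 0 were called by edgeR on all libraries. Eif2s1 (alpha, the subunit phosphorylated under stress) had 74.1, 59.5 and 49.8 CPM in IP against 46.6 to 60.1 CPM in Input (log2 fold 0.21 ± 0.22 SE, adjusted p in edgeR = 0.641). Eif2s2 (beta) and Eif2s3x (gamma) had log2 folds of -0.25 and -0.24, and share 27.8% and 36.2% of their 50-base stretches with other genes. The 5 eIF2B genes all had positive log2 folds, from 0.14 (Eif2b4) to 0.53 (Eif2b1), and 0 were called. Eif2b1, of the regulatory part, had 21.5, 38.0 and 41.9 CPM in IP against 20.9, 26.7, 23.0 and 22.9 CPM in Input, with IP 1 inside the Input range and the others above it (edgeR adjusted p = 0.305, and 0.0369 without IP 1). Eif2b2, also of the regulatory part, had 32.5, 48.9 and 43.7 CPM in IP against 29.3, 36.3, 23.2 and 28.2 CPM in Input (edgeR adjusted p = 0.268).

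The 4 kinases that phosphorylate eIF2 alpha were not called and varied between single libraries. Eif2ak4 (GCN2, which senses uncharged tRNA) had 40.6 CPM in IP 1 and 10.1 and 10.4 in IP 3 and IP 4, against 32.6, 12.5, 16.1 and 14.05 CPM in Inputs 1 to 4; both libraries numbered 1 were the highest. Eif2ak3 (PERK, of the endoplasmic reticulum) had 26.5 CPM in IP 4 and 10.2 to 11.7 in the other IP libraries, against 21.97 CPM in Input 2 and 10.1 to 10.9 in the other Inputs. Eif2ak2 (PKR, which senses double-stranded RNA) had 7.27, 18.5 and 7.78 CPM in IP against 4.25 to 13.5 CPM in Input. Eif2ak1 (HRI, which senses heme) had 65.4 to 74.8 CPM in IP and 61.1 to 96.0 CPM in Input. Among 9 genes downstream of this stress pathway 0 were called higher and 1 lower, where 3.64% and 2.16% of all tested genes were. Atf4, the transcription factor whose translation rises when eIF2 is phosphorylated, had 92.0, 142 and 127 CPM in IP against 218, 214, 189 and 244 CPM in Input. Every IP was below every Input (log2 fold -0.85 ± 0.21 SE, adjusted p in edgeR = 0.0412, and 0.173 with the replicate block). Trib3, a target of it, had 3.004 to 4.67 CPM in IP and at most 0.671 CPM in Input, with a fit that was not called (edgeR adjusted p = 0.0997). Without IP 1, 2 of the 9 were called higher, Trib3 (log2 fold 4.15 ± 1.34 SE, adjusted p in edgeR = 0.0378) and Ppp1r15a (GADD34, which brings a phosphatase to eIF2 alpha). In that fit 12.5% of all tested genes were called higher. Ppp1r15a had 4.97, 24.2 and 20.7 CPM in IP 1, IP 3 and IP 4, against 4.15 to 8.57 CPM in Input (without IP 1, log2 fold 1.73 ± 0.38 SE, adjusted p in edgeR = 0.0045).

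The 14 genes of eIF3, the largest initiation factor, had a median log2 fold of 0.12, ranging from -0.37 (Eif3m) to 0.65 (Eif3i). Eif3i, a WD-repeat subunit, had 120, 125 and 120 CPM in IP against 81.2, 95.4, 67.8 and 65.6 CPM in Input. The 3 IP libraries were nearly equal and all above every Input (log2 fold 0.65 ± 0.20 SE, adjusted p in edgeR = 0.0814, 0.0219 without IP 1, and 0.183 with the replicate block). Eif3h, a TOP-type subunit of the MPN fold, had 81.3, 80.3 and 68.1 CPM in IP against 107, 100, 94.9 and 89.7 CPM in Input, below every Input (log2 fold -0.36 ± 0.18 SE, adjusted p in edgeR = 0.286). Eif3a, the largest subunit and TOP-type, had 208 CPM in IP 1 and 114 and 103 in IP 3 and IP 4, against 94.6 to 139 CPM in Input. Eif3e and Eif3f, also TOP-type, had log2 folds of 0.11 and 0.09. Eif3j2 shares 91.9% and Eif3j1 54.8% of its 50-base stretches with other genes, and both had under 5 CPM in every library.

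In the cap-binding machinery the members differed. Eif4g1, the main scaffold, had 181, 86.9 and 111 CPM in IP against 67.8, 78.5, 64.7 and 64.7 CPM in Input. Every IP was above every Input and IP 1 was the highest (log2 fold 0.87 ± 0.25 SE, adjusted p in edgeR = 0.0735, 0.0361 without IP 3, and 0.202 with the replicate block). Without IP 1 the log2 fold was 0.52 ± 0.19 (SE, adjusted p in edgeR = 0.0630). Its paralogue Eif4g3 had 341, 238 and 256 CPM in IP against 185, 242, 171 and 168 CPM in Input (log2 fold 0.54 ± 0.21 SE, adjusted p in edgeR = 0.156). Eif4g2 (DAP5), a relative that lacks the eIF4E-binding part, had 724 CPM in IP 1 and 1611 and 1262 in IP 3 and IP 4, against 1256 to 1423 CPM in Input. In the IP libraries the log2 ratio of Eif4g2 to Eif4g1 was 2.003 (IP 1), 4.21 (IP 3) and 3.51 (IP 4), against 4.05 to 4.46 in Input, where IP 3 lay inside the Input range (exact two-sided permutation test, p = 0.0857, adjusted p = 0.377 over the 11 pairs).

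The cap-binding proteins and the helicases had negative folds for the most part. Eif4e2 (4EHP), which binds the cap without recruiting eIF4G and represses, had 69.8, 59.5 and 73.7 CPM in IP against 104, 106, 100 and 91.3 CPM in Input. Every IP was below every Input (log2 fold -0.57 ± 0.19 SE, adjusted p in edgeR = 0.103, and 0.0327 without IP 1). Eif4e, the classical cap-binding factor, had a log2 fold of -0.33 ± 0.23 (SE, adjusted p in edgeR = 0.440) and Eif4e3 of 0.34 ± 0.42 (SE, adjusted p in edgeR = 0.693). Eif4a2, the helicase form abundant in brain, had 602, 605 and 533 CPM in IP against 778, 739, 806 and 619 CPM in Input, just below every Input (log2 fold -0.34 ± 0.17 SE, adjusted p in edgeR = 0.266). Eif4a1 had 39.3 to 69.3 CPM in IP and 48.1 to 63.2 CPM in Input, and 65.3% of its 50-base stretches occur in other genes. Eif4b, a TOP-type helper of the helicase, had 166, 205 and 191 CPM in IP against 280, 253, 216 and 237 CPM in Input, also below every Input (log2 fold -0.40 ± 0.18 SE, adjusted p in edgeR = 0.220).

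The inhibitors of eIF4E were led by Eif4ebp2, the form abundant in brain, at 54.6, 54.5 and 53.7 CPM in IP against 76.2, 46.1, 42.8 and 70.0 CPM in Input, with a log2 fold of -0.11 ± 0.25 (SE, adjusted p in edgeR = 0.846). Eif4ebp1 had 0.140 CPM in IP 1 (7 counts), 4.54 in IP 3 and 8.70 in IP 4, against 0.626 to 3.03 CPM in Input. IP 1 was thus below every Input while IP 3 and IP 4 were above, and the log2 fold of 1.56 ± 1.07 (SE) was not called (edgeR adjusted p = 0.437). Eif4enif1, the shuttling partner of eIF4E, had 71.8 to 80.6 CPM in IP and 58.1 to 66.5 CPM in Input, with every IP above every Input and no call (edgeR adjusted p = 0.410). Eif4a3, of the exon junction complex and not an initiation factor in spite of its name, likewise had every IP above every Input (32.2 to 41.0 CPM in IP, 19.1 to 27.3 CPM in Input; edgeR adjusted p = 0.180).

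The TOP-type members were compared as a group by their values. The 11 genes had a median log2 fold of -0.24, with 5 positive and 0 called in either direction (5 elongation genes: -0.41; 6 initiation genes: -0.08), beside 0.06 over all tested genes. Every IP was below every Input in 3 of them (Eef1g, Eif3h and Eif4b) and above in 1 (Eef1d), where 10.4% and 9.55% of all tested genes did so. Library by library, the 11 had median log2 ratios to Input of 0.08 (IP 1), -0.13 (IP 3) and -0.35 (IP 4). Their summed level was 2360, 1404 and 1355 CPM in IP 1, IP 3 and IP 4, against 1648 to 1902 CPM in Input, so the sum was above Input in IP 1 and below it in the others. Without Eef2, left out after its values were seen, the other 10 summed to 1023, 1118 and 969 CPM in IP 1, IP 3 and IP 4. The Inputs had 1136 to 1308 CPM, so that every IP was below every Input. Of these sums Eef1a1, whose level is uncertain, made up 309, 442 and 332 CPM in the IP libraries and 428 to 537 CPM in Input. In IP 1 it made up 309 of 1023 CPM, and in Input 2 it made up 428 of 1136 CPM. With Eef1a1 also left out, IP 1 lies just above Input 2, so the full separation of the groups rests on this gene. The cause was not tested. At an unadjusted p under 0.05 edgeR gave 1 of the 11 higher (Eef1d) and 2 lower (Eef1a1 and Eef1g), against 13.3% and 9.4% of all tested genes. DESeq2 and limma voom called 0 of the 11. Of all genes DESeq2 called 8.03% higher and 5.54% lower, and limma voom 0.432% and 1.09%. Without IP 1 edgeR called 2 of the 11 lower (Eef1g and Eef2) and 0 higher, where 9.55% and 12.5% of all tested genes were. A further 8 genes listed as TOP-type encode no Eif or Eef factor. Of these 1 was called higher and 0 lower, where 3.64% and 2.16% of all tested genes were. That gene, Vim (the intermediate filament protein vimentin, also made by ependymal cells and fibroblasts), had 17.4, 178 and 163 CPM in IP against 5.80 to 12.9 CPM in Input (log2 fold 3.56 ± 0.67 SE, adjusted p in edgeR = 0.0231, and 0.179 with the replicate block).

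**Figure D3:**
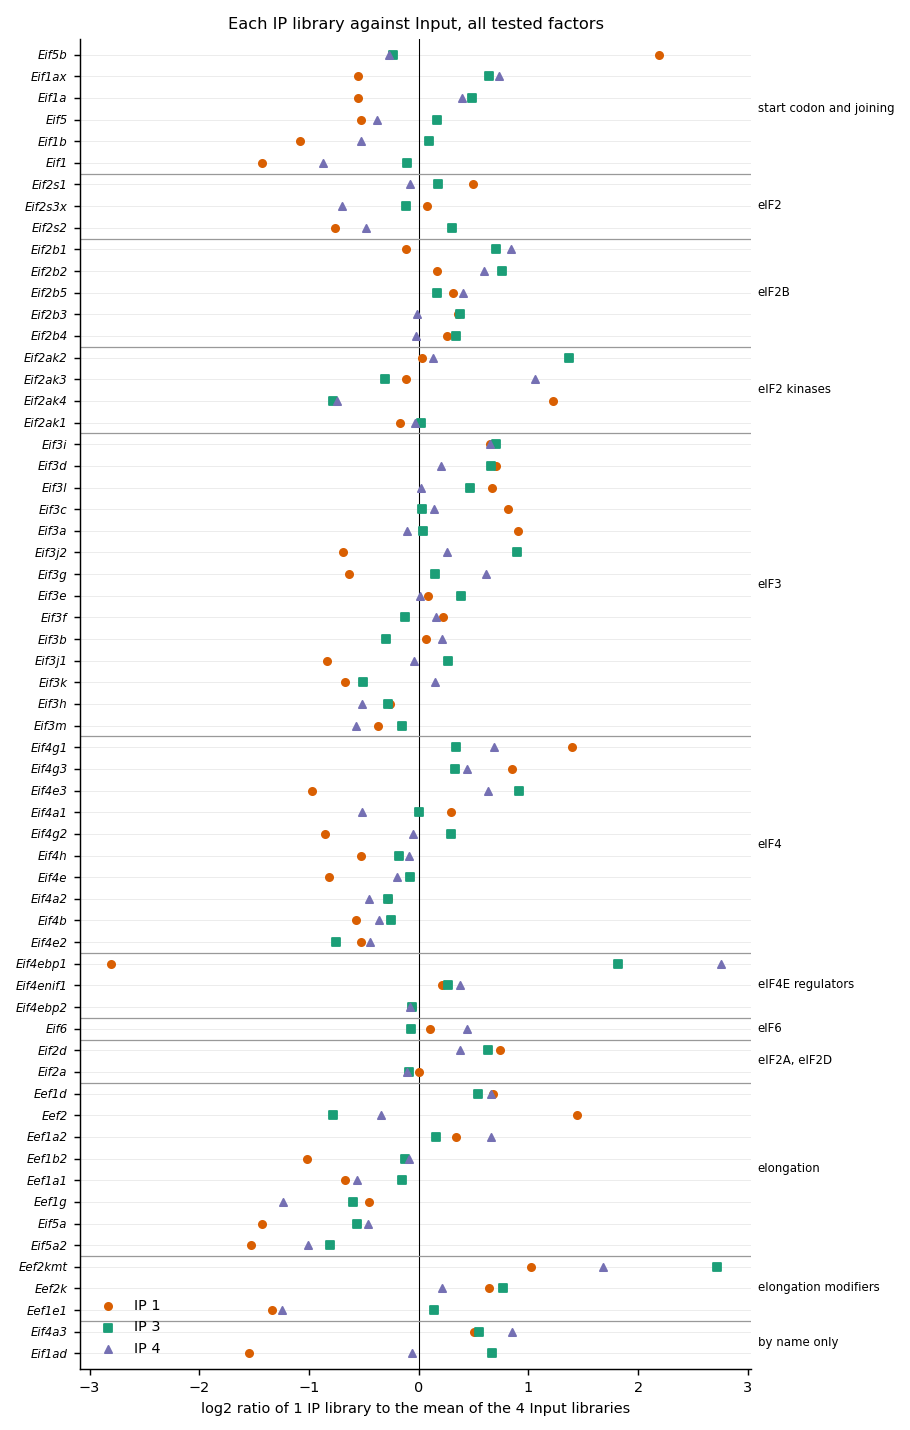
Log2 ratio of each IP library to the mean of the 4 Inputs (horizontal axis) for the 61 tested factors (vertical axis, by class and fitted fold). IP 3 and IP 4 lie close together for factors such as Eif5b and Eif1ax, and IP 1 lies apart from them in Eif5b, Eef2, Eif2ak4, Eif1ad and Eif4ebp1.

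IP 1 was more than 2-fold above both other IP libraries in 3 of the 61 factors (Eef2, Eif2ak4 and Eif5b) and more than 2-fold below both in 5 (Eif1ad, Eif1ax, Eif3j2, Eif4e3 and Eif4ebp1), or 4.92% and 8.20%. Length moved with the ratio in this library. Over the 61 factors the log2 ratio to Input had a Spearman correlation with exon length of 0.34 in IP 1, -0.03 in IP 3 and -0.07 in IP 4, and over 15156 tested genes with a length of 0.17, -0.08 and -0.04, given as a description over genes of the same libraries. The shortest 25% of the factors had a median log2 ratio of -0.65 and the longest 25% of 0.50 in IP 1, against 0.15 and 0.30 in IP 3 and 0.33 and -0.04 in IP 4. The part of length in the values of IP 1 was not tested.

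**Figure D4:**
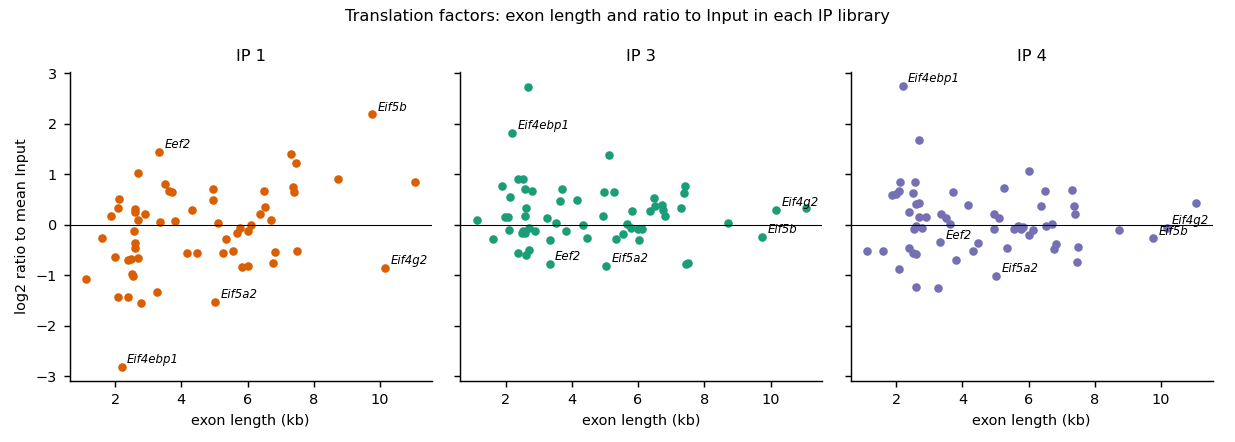
Exon length in kb (horizontal axis) and log2 ratio to the mean Input (vertical axis) of the 61 tested factors, 1 panel for each IP library. In IP 1 the short factors lie mostly below 0 and long ones such as Eif5b above it, while in IP 3 and IP 4 no slope is seen.

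Levels of different factors were set side by side per kb of exon. In IP the highest mean levels were those of Eef2 (201 ± 175 CPM per kb), Eef1a1 (145 ± 28.3), Eif4g2 (118 ± 43.9) and Eif4a2 (109 ± 7.58; SD, n = 3), and in Input those of Eef1a1 (198 ± 19.0 CPM per kb), Eef2 (150 ± 29.8), Eif4a2 (138 ± 15.5) and Eif4g2 (129 ± 7.35; SD, n = 4). In each group each of these 4 overlapped the next in the order, library by library. The first place of Eef2 in IP rested on IP 1, at 402 CPM per kb. In IP 3 and IP 4 Eef2 had 86.1 and 116 CPM per kb, below Eef1a1 (177 and 133) and Eif4g2 (158 and 124). Eif4a2 (113 and 99.8) lay above Eef2 in IP 3 and below it in IP 4. The lowest tested factors were Eif3j2 and Eif3j1, at under 1 CPM per kb in both groups. Eif5a2 lay at 16.8 ± 4.10 CPM per kb in IP and 35.8 ± 2.47 in Input, below Eif5a at 56.7 ± 18.4 in IP and 97.9 ± 22.02 in Input.

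Among 60 further genes of the pathway (release and recycling factors, partners of the cap complex, stress response, mitochondrial factors, enzymes that modify factors, and other TOP-type mRNAs) 2 were called higher and 2 lower. Of all tested genes 3.64% were called higher and 2.16% lower. Besides Vim and Atf4 the called pathway genes were Ddx3x and Paip2b, both partners of the cap-binding machinery. Ddx3x, a helicase that helps structured mRNAs start, had 324, 341 and 335 CPM in IP against 218, 190, 190 and 183 CPM in Input (log2 fold 0.77 ± 0.16 SE, adjusted p in edgeR = 0.0266, and 0.170 with the replicate block). Paip2b, which keeps poly(A)-binding protein from the mRNA, had 25.9, 48.4 and 50.03 CPM in IP against 84.2, 91.5, 82.2 and 79.3 CPM in Input (log2 fold -1.02 ± 0.26 SE, adjusted p in edgeR = 0.0468, and 0.174 with the block). In both the groups were fully apart. Pabpc1, the main cytoplasmic poly(A)-binding protein and itself encoded by a TOP mRNA, had 97.8, 111 and 110 CPM in IP against 186, 145, 162 and 159 CPM in Input, with a log2 fold of -0.61 ± 0.18 (SE, adjusted p in edgeR = 0.0726). Larp1, the protein that binds TOP tracts, had 175, 145 and 171 CPM in IP against 97.4, 116, 111 and 107 CPM in Input, with a log2 fold of 0.60 ± 0.17 (SE, adjusted p in edgeR = 0.0699). Of 9 release and recycling factors, 10 mitochondrial factors and 9 factor-modifying enzymes 0 were called by edgeR, and 0, 0 and 1 had an unadjusted p under 0.05. At that unadjusted p 13.3% of all tested genes were higher and 9.4% lower. The smallest p in these lists were those of Gspt1 (release factor eRF3a, log2 fold 0.30) and Mcts1 (recycling, -0.54), of Tufm (mitochondrial EF-Tu, 0.99) and Mtif3 (mitochondrial IF3, 0.32), and of N6amt2 (a methyltransferase, -0.79) and Dhps (-0.80). Without IP 1, 2 mitochondrial factors were called lower, Gfm2 (36.8, 7.53 and 3.73 CPM in IP 1, IP 3 and IP 4, against 15.7 to 25.6 CPM in Input) and Guf1 (30.2, 9.01 and 7.94 CPM in IP, against 13.5 to 23.9 CPM in Input). In both, IP 1 lay above every Input and IP 3 and IP 4 below. Their log2 folds without IP 1 were -1.99 ± 0.41 (Gfm2, adjusted p in edgeR = 0.0027) and -1.11 ± 0.37 (Guf1, adjusted p in edgeR = 0.0431, both SE). Over the 60 genes DESeq2 called 5 higher, where it called 8.03% of all genes. Limma voom called 1 of the 60 higher and 0 lower, where it called 0.432% and 1.09% of all genes. With the replicate block 0 of the 60 were called, where 0.54% of all genes were higher and 0.17% lower. Without IP 1, 6 were called higher and 5 lower, where 12.5% and 9.55% of all genes were.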

How the data were processed

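The authors deposited whole-number counts of reads per gene symbol, 1 table per library, not normalised. The aligner was STAR 2.0.0e, the counter HTSeq and the build mm10, per the submitters' processing notes. For their settings, the annotation and the strand, no source used here gives a value. Reads not assigned to a single gene (40.1% to 52.1% of each table) were left out. They include reads in no gene (8.15% to 18.4%) and reads that align to several places (19.8% to 39.3%). Among those left out, reads marked ambiguous made up 1.51% to 2.01% of each IP table and 9.33% to 12.9% of each Input table. The part of this in the folds was not tested. CPM were computed on the TMM scale. Genes were tested with edgeR 4.0.16 (robust quasi-likelihood, R 4.3.3) after filterByExpr (minimum count 10, minimum total 15), with Benjamini-Hochberg adjustment over 17375 genes and a threshold of 0.05. DESeq2 1.42.0 and limma voom 3.58.1 were alternatives, beside other scalings, filters, a replicate block and leaving out each library. SE is the log2 fold divided by the square root of F. Ratios of single libraries used a prior count of 2. The scripts were tested on simulated data.

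The members, gene lists and paralogue pairs were chosen with earlier results of these data known. Genes named are those called, the 6 smallest p in each direction, TOP-type genes, paralogues, the eIF2 kinases, eIF2B, eIF2 and 4E-BP genes, Eef2k, and in each pathway list the called genes or the 2 smallest p; others, among them Eif5b, Eif3m, Eif4enif1, Dohh, Trib3, Ppp1r15a, Gfm2, Guf1, Pabpc1 and Larp1, were chosen after their values were seen. Groups came from the labels. The labels place the IP and Input of numbers 1, 3 and 4 on the same sequencing lane, which is where the pairing comes from; the deviations of same-numbered libraries correlated at 0.03, 0.04 and 0.03 across genes. Positions, exon lengths and shared 50-base stretches are from the GENCODE annotation of GRCm38, start sequences from RefSeq, GRCm38.p6. The floor of 3 counts covers counting error only, whereas SE and SD also carry the spread between these libraries.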

Additional observations from a re-analysis of the deposited data

Results flagged for a closer look

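Eif2ak3 (the kinase PERK) stood out in Input 2, where it had 21.97 CPM while the other 3 Input libraries had 10.1 to 10.9 CPM, a gap of 0.926 of the range of the group. Among 45 such groups of 4 Input libraries examined, Eif2ak3 alone was flagged. Chance alone flags about 1 group in 20, so this flag is no more than chance would give.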

How the results depend on the processing

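The count of factors called lower was 1 with TMM, DESeq2 size factors, total counts, DESeq2, limma voom and both other filters, the gene being Eif5a2 each time. DESeq2 called 3 factors and 5 pathway genes higher. Limma voom called 1 pathway gene higher and 0 lower, the fit with no filter 1 higher, and total counts 0 lower. With the replicate block, which pairs libraries by lane and drops Input 2, 0 factors and 0 pathway genes were called lower and 0 pathway genes higher, and the elongation median was -0.56; apart from the marker counts given in the report, it changed no other call named there. Leaving out 1 library gave 0 to 3 factors higher and 0 to 4 lower, 0 to 6 pathway genes higher and 0 to 5 lower, and elongation medians from -0.59 to -0.33. The extremes of the counts came without IP 1, when 2259 genes were called higher and 1724 lower; without IP 4 or any Input 4 to 21 were higher and 16 to 30 lower.

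The log2 folds of 19 factors turned sign when 1 library was left out. With their lowest and highest values over the 7 leave-outs these were Eef2 (-0.57 without IP 1, to 0.77), Eif1a (-0.011 to 0.44), Eif2ak1 (-0.17 to 0.057), Eif2ak2 (-0.059 to 0.92), Eif2ak3 (-0.29 to 0.61), Eif2ak4 (-0.88 to 0.51), Eif3a (-0.051 to 0.52), Eif3e (-0.081 to 0.23), Eif3j1 (-0.48 to 0.039), Eif3j2 (-0.24 to 0.61), Eif4a1 (-0.25 to 0.15), Eif4e3 (-0.012 to 0.73), Eif4ebp2 (-0.24 to 0.028), Eif4g2 (-0.41 to 0.13), Eif5b (-0.26 without IP 1, to 1.44), Eif1ad (-0.64 to 0.34), Eif2a (-0.15 to 0.026), Eif3b (-0.12 to 0.12) and Eif3g (-0.19 to 0.39). Signs also turned for Eif2ak1 (0.063), Eif2ak4 (-0.26) and Eif3e (-0.082) with the replicate block and for Eif2ak4 with limma voom (-0.086). The paralogue difference turned for Eif4e2 over Eif4e (leave-outs -0.46 to 0.026) and Eif4ebp2 over Eif4ebp1 (-2.41 to 0.58). Of these genes only Eef2 (without IP 1) and Eif4e2 (without IP 1) were called in any alternative fit, and the cause was not tested. Depth limits Eif4ebp1, Eif3j2 and Eif4ebp3, which had few counts.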
